A study of Mus musculus with 6 samples.

Results

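The genes described here encode 33 enzymes and membrane proteins of the lysosome, measured in mouse mesenchymal stem cells grown at a high and a low seeding density. They were chosen by name, as probe sets whose gene symbol equals a listed symbol, and all 33 were found among the 22349 genes that the array annotation names. They comprise 9 cysteine cathepsins, 3 other peptidases, 10 glycosidases and sulfatases, 5 proteins of lipid handling, 4 membrane proteins, and progranulin with Gpnmb. Dense cultures received 2500000 cells and sparse cultures 15000. Cells extracted from mouse bone marrow were kept in a purchased medium for stem cells, and RNA was collected 1, 2 and 3 days after seeding. With 1 Affymetrix array per density and day there were 6 arrays, 3 of dense and 3 of sparse cultures. All titles carry the same prefix, whose meaning the labels do not give, and no separate animals or cell preparations are named. Strain, sex and age of the mice are not given in the labels, and no cell received a drug or a genetic change that the labels name. The values are RMA log2 values per probe set, on which a difference of 1 is a 2-fold change. Levels of different probe sets are not comparable with each other, and results are read as differences between arrays. Levels serve only as a rough guide to whether a gene or a marker list was dim or bright.

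The lysosome is the acidic organelle in which proteins, glycans, glycosaminoglycans and lipids are broken down by hydrolases. Most of these enzymes are made in the endoplasmic reticulum, tagged with mannose 6-phosphate and carried to the lysosome by receptors, and a proton pump acidifies the lumen. In mammalian cells the transcription factors TFEB, TFE3 and MITF bind an E-box element in the promoters of many lysosomal genes. In bone marrow stroma, lysosomal and secreted cathepsins also take part in the turnover of collagen and other matrix.

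Of the 32 that were bright enough to be tested, 14 were higher and 0 lower at a limma adjusted p under 0.05, where 8.26% and 2.90% of all 16762 tested genes were called higher and lower. The median log2 difference, dense minus sparse, was 0.65 over the 32 genes, against −0.05 over all tested genes. The difference was above 0 for 31 of the 32, and 27 had it above 0 on each of the 3 days. The 31 include Ctsh, which was bright enough to be tested only through its dense value of day 2. In 23 of the 32, every dense array lay above every sparse array, which held for 20.9% of all tested genes. The listed genes were brighter, with a median level of 7.75 over the 33, against 6.04 over all tested genes. With only genes from the 50th percentile of mean level upward tested, the median difference was 0.68 for the listed genes. Over all 11175 genes tested in that setting it was 0.06, and 1353 of them were called higher. Since 1 array stands for each density and day, these p-values rest on how far differences varied from day to day, not on replicate cultures. In this, limma draws the variance of each gene toward a value shared by all tested genes, so that a p-value does not measure that gene's spread alone. In bulk RNA a change in the share of a cell type and a change in RNA per cell cannot be told apart. Without both day 2 arrays 0 of the 14 genes passed limma's test (16 of the 32 had an unadjusted p under 0.05 and a higher dense value), as did 0 of all 16762 tested genes (2531 had an unadjusted p under 0.05 in either direction).

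**Figure D1:**
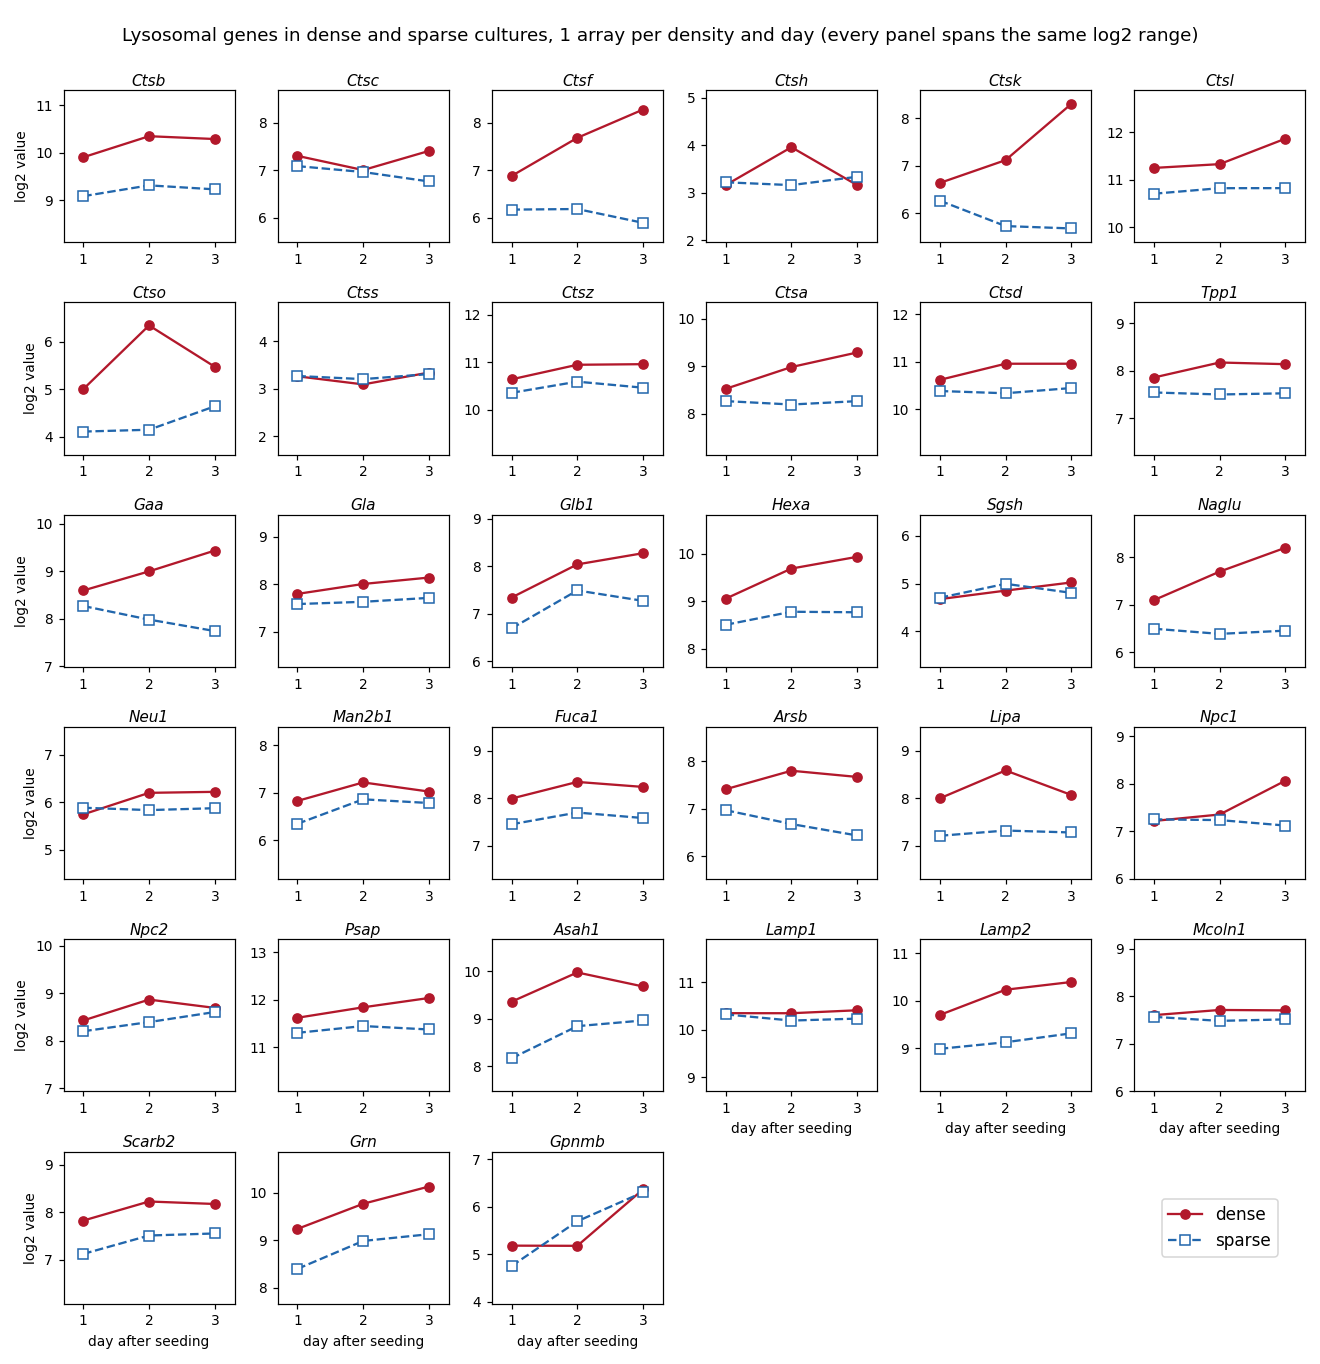
RMA log2 value of each of the 33 genes (y axis, every panel spanning the same range of log2 units) on days 1, 2 and 3 after seeding (x axis), in dense cultures (filled red circles) and sparse cultures (open blue squares), with 1 array per point. The dense line lies above the sparse line on all 3 days for 27 of the 32 tested genes, whereas the lines of Gpnmb, Sgsh, Ctsh, Neu1, Npc1 and the untested Ctss cross.

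Promoter sequences of 29 of the 33 genes were found in the RefSeq promoter table of build GRCm38.p6, which holds 250 bases before and 50 after each transcription start. They were searched for CACGTG, the 6-base core of the E-box, which reads the same on both strands. At least 1 match was found in 11 of the 29 genes (37.9%), against 8.09% of the 27025 genes of the table, and 5 of the 11 held more than 1. A longer form, the core with GT before it and AC after it, was found in 0 of the 29 genes and in 0.370% of all genes. No promoter sequence was found for Npc1, Asah1, Ctsb and Ctsh, so that these were not searched. The stretches with the matches are shown because they are what these promoters share, each 5′ to 3′ on the strand of the gene, with the core in capitals and the start and end on GRCm38.p6. Ctsd and Gla each hold a second match farther from the start that is not shown.
Lamp1, chr8:13159088-13159163, plus strand: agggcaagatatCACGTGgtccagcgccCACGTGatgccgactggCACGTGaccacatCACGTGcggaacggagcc
Mcoln1, chr8:3500436-3500491, plus strand: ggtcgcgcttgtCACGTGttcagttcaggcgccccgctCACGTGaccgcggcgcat
Ctsa, chr2:164833749-164833795, plus strand: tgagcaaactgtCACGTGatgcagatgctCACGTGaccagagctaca
Naglu, chr11:101070009-101070038, plus strand: caaccttcaggtCACGTGgcccgaggtcgg
Ctsf, chr19:4855074-4855103, plus strand: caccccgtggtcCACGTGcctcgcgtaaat
Gaa, chr11:119267811-119267840, plus strand: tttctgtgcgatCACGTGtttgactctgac
Glb1, chr9:114401018-114401047, plus strand: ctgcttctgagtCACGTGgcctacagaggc
Sgsh, chr11:119355522-119355551, minus strand: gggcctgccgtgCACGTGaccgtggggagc
Ctsd, chr7:142387908-142387937, minus strand: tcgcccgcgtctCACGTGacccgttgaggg
Gla, chrX:134601182-134601211, minus strand: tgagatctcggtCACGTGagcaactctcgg
Ctsl, chr13:64370739-64370768, minus strand: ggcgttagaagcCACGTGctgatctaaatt

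The promoters of Lamp2 and Ctsk, of which Lamp2 passed the test and Ctsk had the second largest difference of the 32, held no match in their 300 bases, and are shown whole as the contrast to those above.
Lamp2, chrX:38456411-38456710, minus strand: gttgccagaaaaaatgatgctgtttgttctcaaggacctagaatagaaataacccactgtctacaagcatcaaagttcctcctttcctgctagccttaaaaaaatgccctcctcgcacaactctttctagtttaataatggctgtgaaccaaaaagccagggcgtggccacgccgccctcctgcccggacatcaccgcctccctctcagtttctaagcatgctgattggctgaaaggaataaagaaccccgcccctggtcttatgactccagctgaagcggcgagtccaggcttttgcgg
Ctsk, chr3:95498960-95499259, plus strand: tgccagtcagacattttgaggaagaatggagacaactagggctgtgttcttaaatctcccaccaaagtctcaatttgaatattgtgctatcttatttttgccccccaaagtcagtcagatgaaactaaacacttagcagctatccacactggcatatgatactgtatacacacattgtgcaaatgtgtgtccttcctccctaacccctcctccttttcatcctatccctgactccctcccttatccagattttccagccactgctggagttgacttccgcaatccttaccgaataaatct

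The cysteine cathepsins are papain-like proteases that do much of the protein breakdown in the lysosome. Of 8 tested, 4 were higher in dense cultures (8.26% of all tested genes). Ctsf, a cathepsin expressed in many tissues, had the largest difference of all 32 genes. Its log2 values were 6.88, 7.68 and 8.28 on days 1, 2 and 3 in dense cultures, against 6.17, 6.18 and 5.89 in sparse cultures. The dense values were higher on each later day while the sparse values varied little, and the densities did not overlap. The log2 difference was 1.53 ± 0.31 (SE, 3 arrays per density), a 2.89-fold increase with a limma adjusted p of 0.0369. Ctsb, which acts as both an endopeptidase and a carboxypeptidase, had 9.90, 10.35 and 10.29 in dense and 9.08, 9.31 and 9.23 in sparse cultures. Its difference of 0.97 ± 0.12 was nearly as large on each single day, from 0.82 to 1.06, and had the smallest adjusted p of the 32 genes, 0.0136.

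Ctsl, an endopeptidase, had values of 11.25, 11.32 and 11.86 in dense and of 10.70, 10.82 and 10.82 in sparse cultures. Its difference of 0.70 ± 0.15 (adjusted p = 0.0441) was largest on day 3. It did not pass without the day 1 arrays (adjusted p = 0.0615) or without the day 3 arrays (adjusted p = 0.0571). Ctso, a little studied cathepsin, had 5.01, 6.35 and 5.48 in dense and 4.11, 4.15 and 4.65 in sparse cultures. The dense value of day 2 stands out, with a difference of 2.20 on that day against 0.89 on day 1 and 0.83 on day 3. The mean difference was 1.31 ± 0.29 (adjusted p = 0.0448), and without the day 1 arrays it was 1.51 with an adjusted p of 0.0513. The sparse values of days 1 and 2 lay under the array medians, where RMA compresses differences.

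Ctsk, the collagen-degrading cathepsin best known from osteoclasts, did not pass although its difference was the second largest. Its values were 6.64, 7.12 and 8.30 in dense cultures, against 6.27, 5.73 and 5.68 in sparse cultures. The densities diverged over the days, with a difference of 0.37 on day 1, 1.39 on day 2 and 2.62 on day 3. The mean difference was 1.46 ± 0.40 (adjusted p = 0.0694), since the fit takes this drift as error. It passed without the day 1 arrays (2.00, adjusted p = 0.0239), without the day 3 arrays (0.88, adjusted p = 0.0399) and without the day as a block (adjusted p = 0.0475). Of 10 osteoclast markers, which include Ctsk, 5 lay under the median of every array. Of the 6 tested, 0 were called higher in dense cultures (8.26% of all tested genes). The gelatinase gene Mmp9 was called lower at −3.05 (2.90% of all tested genes). The summed linear level of the osteoclast list was 217, 269 and 455 in dense cultures on days 1, 2 and 3. In sparse cultures it was 652, 435 and 240, so that the sum was lower in dense cultures on days 1 and 2 and higher on day 3. Ctsk itself is part of this sum, so that the sum is not independent of the Ctsk difference. The part of osteoclasts in that difference was not tested.

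The other tested cysteine cathepsins did not pass. Ctsz, a carboxypeptidase, had a difference of 0.38 ± 0.12 (95% interval 0.09 to 0.67) with dense above sparse on 3 of 3 days. Ctsc, which activates granule proteases of leukocytes, had 0.30 ± 0.15, and its adjusted p was 0.222. Ctsh, an aminopeptidase, lay at 3.16, 3.96 and 3.16 in dense cultures and at 3.22, 3.16 and 3.34 in sparse cultures. The gene entered the test, whose floor was a mean of 3.32, through the dense value of day 2. Ctss, the cathepsin of antigen-presenting cells, lay at 3.26, 3.09 and 3.34 in dense and at 3.27, 3.20 and 3.31 in sparse cultures, under every array median, and was not tested. Ctsk and Ctss lie next to each other among protein-coding genes on chromosome 3.

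Ctss belongs to the macrophage and leukocyte markers, which were low in these cultures. Of 17 such markers, 13 lay under the median of every array, the pan-leukocyte gene Ptprc among them, and 0 of the 9 tested passed limma's test (1 had an unadjusted p under 0.05). Over all tested genes 8.26% were called higher and 2.90% lower. The summed linear level of the 17 markers was 216 to 227 in dense cultures, against 229 to 242 in sparse cultures. Of the 12 mesenchymal markers, all but Eng lay above the median of every array, with 7 higher in dense cultures (Col1a1 at 1.66 and Pdgfra at 1.81) and Cd44 lower at −1.09. Markers of the labelled cell type therefore moved between the densities too, and their part in the lysosomal differences was not tested.

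Among the other peptidases 0 of 3 passed limma's test, where 8.26% of all tested genes were called higher. All 3 had dense above sparse without overlap, as did 20.9% of all tested genes. They also had an unadjusted p under 0.05, a threshold that 5748 of the 16762 tested genes passed in either direction. Ctsa, a carboxypeptidase that also stabilises the enzymes of Glb1 and Neu1 in a complex, had 8.53, 8.99 and 9.29 in dense and 8.27, 8.20 and 8.27 in sparse cultures. The sparse values hardly varied while the dense values climbed, and the difference was 0.69 ± 0.17 (adjusted p = 0.0589). Without the day 1 arrays it was 0.91 and passed (adjusted p = 0.0289). Tpp1, which removes tripeptides from protein ends, had 7.86, 8.18 and 8.14 in dense and 7.54, 7.50 and 7.53 in sparse cultures (0.53 ± 0.13, adjusted p = 0.0552, and 0.0345 without the day as a block). Ctsd, the main aspartic protease of the lysosome, had 10.62, 10.96 and 10.96 in dense and 10.38, 10.34 and 10.45 in sparse cultures, a difference of 0.46 ± 0.13 (adjusted p = 0.0759).

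**Figure D2:**
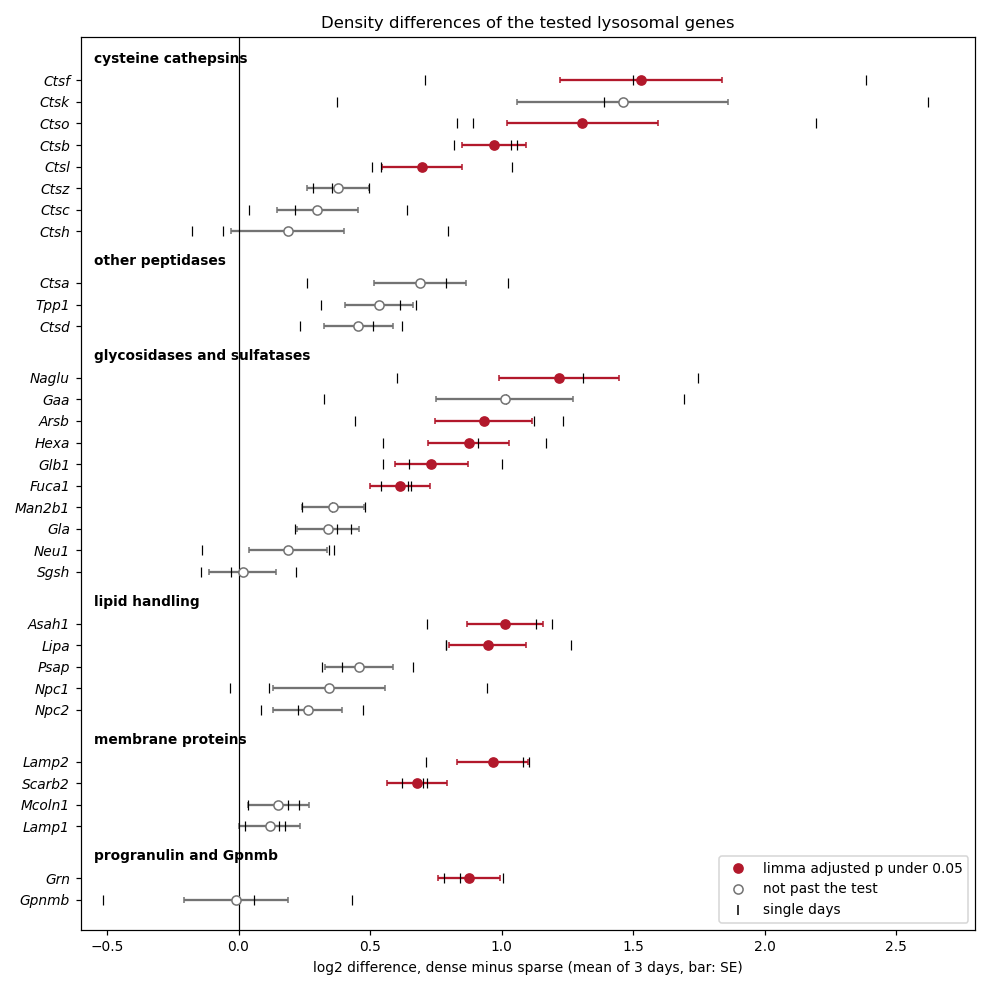
Log2 difference between dense and sparse cultures for the 32 tested genes (x axis, dense minus sparse), grouped by role, as the mean of 3 days with its SE (bars) and the 3 single days (ticks). Filled red points are the 14 genes at a limma adjusted p under 0.05, all right of 0, and Ctsk and Gaa show the widest spread between days among the genes that did not pass.

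The 10 glycosidases and sulfatases take sugars and sulfates off glycans stepwise. Of these, 5 were higher in dense cultures and 0 lower (8.26% and 2.90% of all tested genes). Naglu, which removes N-acetylglucosamine from heparan sulfate, had the largest difference. Its values were 7.10, 7.70 and 8.20 in dense cultures, against 6.50, 6.39 and 6.46 in sparse cultures. The sparse values stayed level while the dense values climbed each day, giving 1.22 ± 0.23, a 2.33-fold increase (adjusted p = 0.0317). Arsb, the sulfatase of dermatan and chondroitin sulfate, had 7.41, 7.80 and 7.67 in dense and 6.97, 6.68 and 6.44 in sparse cultures, with 0.93 ± 0.18 (adjusted p = 0.0356). A second, dimmer probe set of Arsb gave 0.89. Sgsh, which removes sulfate from heparan sulfate, did not differ in the same way. Its values were 4.67, 4.85 and 5.02 in dense and 4.70, 4.99 and 4.80 in sparse cultures. These lay not far above the array medians (4.33 to 4.45), and how far this dim signal limits the Sgsh difference was not tested. Its difference was 0.02 ± 0.13 with a 95% interval of −0.30 to 0.33, and its sign changed between days.

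Enzymes of ganglioside and glycoprotein breakdown made up the rest of the calls. Hexa, the alpha chain of hexosaminidase A, had 9.05, 9.69 and 9.93 in dense and 8.50, 8.78 and 8.77 in sparse cultures. Each dense value lay above each sparse value, with a difference of 0.88 ± 0.15 (adjusted p = 0.0282). Glb1, the beta-galactosidase that senescence stains measure, had 7.34, 8.04 and 8.28 in dense and 6.69, 7.49 and 7.27 in sparse cultures. It was higher on day 2 than on day 1 at both densities, and the dense value of day 1 lay under the sparse value of day 2. The paired difference was 0.73 ± 0.14 (adjusted p = 0.0324), and it did not pass without the day as a block (adjusted p = 0.117) or without the day 1 arrays (adjusted p = 0.0539). Fuca1, the alpha-fucosidase, had 7.99, 8.34 and 8.24 in dense and 7.45, 7.70 and 7.58 in sparse cultures. Its difference of 0.61 ± 0.11 (adjusted p = 0.0314) was steady from day to day, at 0.54 to 0.65, and without the day 1 arrays its adjusted p was 0.0522.

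Gaa, which splits glycogen, was 2.02-fold higher on average but did not pass. Its values were 8.59, 8.99 and 9.43 in dense cultures and 8.27, 7.98 and 7.74 in sparse cultures. The dense values climbed and the sparse values declined, so that the difference was 0.33, 1.01 and 1.69 on days 1, 2 and 3, with a mean of 1.01 ± 0.26 (adjusted p = 0.0603). Without the day 1 arrays it passed (1.35, adjusted p = 0.0239), as it did without the day as a block (adjusted p = 0.0304). Gla, the alpha-galactosidase, had 0.34 ± 0.12 and the mannosidase Man2b1 0.36 ± 0.12, neither past the test. Neu1, the lysosomal sialidase, had 0.19 ± 0.15 with a 95% interval of −0.18 to 0.56.

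Of the genes of lipid handling, 2 of 5 were higher in dense cultures (8.26% of all tested genes). Asah1, the acid ceramidase, had 9.36, 9.97 and 9.68 in dense and 8.17, 8.84 and 8.96 in sparse cultures. Its difference was largest on day 1, at 1.19, and 0.72 on day 3, with a mean of 1.01 ± 0.14 (adjusted p = 0.0179). Lipa, the acid lipase of cholesteryl esters and triglycerides, had 8.00, 8.59 and 8.07 in dense and 7.21, 7.32 and 7.28 in sparse cultures. Its dense value peaked on day 2 over flat sparse values, and its difference was 0.95 ± 0.15 (adjusted p = 0.0213). Psap, the precursor of the saposins that help enzymes reach lipids, had 11.62, 11.84 and 12.03 in dense and 11.30, 11.44 and 11.37 in sparse cultures. Dense lay above sparse without overlap, but 0.46 ± 0.13 did not pass (adjusted p = 0.0717).

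Npc1 and Npc2, which together carry cholesterol out of the lysosome, did not pass. Npc1 had 7.22, 7.36 and 8.07 in dense and 7.26, 7.24 and 7.12 in sparse cultures. The densities were alike on days 1 and 2 and apart by 0.94 on day 3, and the mean difference was 0.34 ± 0.21. Npc2 had 0.26 ± 0.13 (95% interval −0.06 to 0.59).

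Of the 4 membrane proteins 2 were higher in dense cultures (8.26% of all tested genes) and 2 had small differences. Lamp2, a major glycoprotein of the lysosomal membrane that also serves chaperone-mediated autophagy, had 9.70, 10.23 and 10.40 in dense and 8.99, 9.13 and 9.32 in sparse cultures. Every dense value lay above every sparse value, with 0.97 ± 0.13, a 1.95-fold increase (adjusted p = 0.0175). Lamp1, its close relative, had 10.35, 10.34 and 10.41 in dense and 10.32, 10.19 and 10.23 in sparse cultures. The densities did not overlap, but the difference for Lamp1 was 0.12 ± 0.12, with a 95% interval of −0.17 to 0.40, whose upper end lies below the interval of Lamp2 (0.63 to 1.30). Scarb2, the receptor that brings glucocerebrosidase to the lysosome, had 7.83, 8.23 and 8.18 in dense and 7.12, 7.51 and 7.55 in sparse cultures. Its difference was steady, at 0.62 to 0.72 on the single days and 0.68 ± 0.11 on average (adjusted p = 0.0253). Without the day 1 arrays its adjusted p was 0.0504. Mcoln1, a calcium channel of the lysosomal membrane, had 7.60, 7.71 and 7.70 in dense and 7.56, 7.48 and 7.51 in sparse cultures, a difference of 0.15 ± 0.12 (95% interval −0.14 to 0.44).

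Grn, which encodes progranulin, a secreted and lysosomal glycoprotein, had 9.24, 9.77 and 10.13 in dense and 8.40, 8.98 and 9.13 in sparse cultures. It was higher on each later day at both densities, which stayed 0.78 to 1.00 apart, giving 0.88 ± 0.12 (adjusted p = 0.0162). A second, dim probe set of Grn gave −0.12, and the mean of both gave 0.38 and did not pass (adjusted p = 0.0930). Without the day as a block the adjusted p was 0.0654, since the differences between days then count as error. Gpnmb, a transmembrane glycoprotein of lysosomes and melanosomes, showed no steady difference. Its values were 5.18, 5.18 and 6.37 in dense and 4.75, 5.70 and 6.31 in sparse cultures. It was higher on day 3 than on day 1 at both densities, with dense above sparse on days 1 and 3 and below it on day 2, and the mean difference was −0.01 ± 0.20 (95% interval −0.50 to 0.48).

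The median difference was larger on days 2 and 3 than on day 1, though the slope test described below called 0 of the 32 genes. The shares of all tested genes at least 1.5-fold apart also rose over the days. With 1 array per density and day and no test, 10 of 32 genes were at least 1.5-fold higher in dense cultures on day 1, 18 on day 2 and 21 on day 3, against 10.3%, 14.1% and 14.9% of all tested genes. The 18 include Ctsh, which entered the test only through its dense value of that day. On none of the 3 days was any of the 32 as much as 1.5-fold lower (0 of 32), against 6.20%, 7.08% and 8.26% of all tested genes. The median log2 difference was 0.40 on day 1, 0.66 on day 2 and 0.69 on day 3. The largest of the 3 daily differences fell on day 3 for 19 genes, on day 2 for 10 and on day 1 for 3.

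The dense value of day 3 was above that of day 1 in 31 of 32 genes, against 54.2% of all tested genes, and by at least 1.5-fold in 12, against 7.11%. Within sparse cultures day 3 was above day 1 in 20 of 32, against 48.0% of all tested genes, and by at least 1.5-fold in 3, against 4.16%. The 3 were Gpnmb, Asah1 and Grn, with log2 changes of 1.55, 0.80 and 0.73. Ctsk (1.66), Ctsf (1.40), Gpnmb (1.18) and Naglu (1.10) changed most in dense cultures, and Ctsk had −0.58 in sparse cultures. These changes compare single arrays and have no test.

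**Figure D3:**
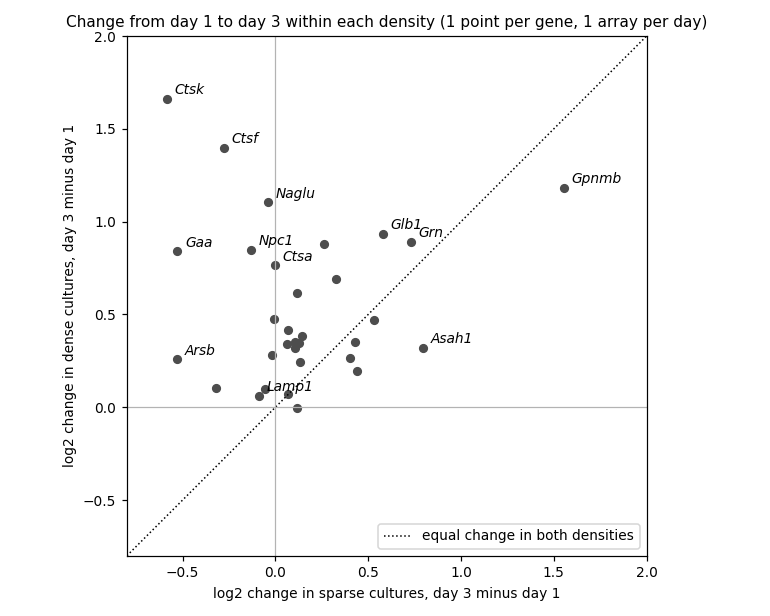
Log2 change between day 1 and day 3 in dense cultures (y axis) and in sparse cultures (x axis) for the 32 tested genes, from 1 array per density and day. Most points lie above 0 on the y axis and left of the dotted line of equal change, with Ctsk, Ctsf, Naglu and Gaa farthest from it.

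The test of whether the slope per day differed between the densities called 0 of the 32 genes with limma (0.191% of all tested genes were called, and 0.0776% with a positive difference, dense minus sparse). An unadjusted p under 0.05 was found for 7 of 32, against 16.2% of all tested genes. These were Ctsk, Ctsf, Gaa, Naglu, Npc1, Ctsa and Arsb, and in each the difference, dense minus sparse, was above 0. The direction at this threshold was not counted over all tested genes. At any p, the slope difference was above 0 in 25 of the 32 genes, against 9257 of the 16762 tested genes. Arsb had a dense change between days 1 and 3 of 0.26, against −0.53 in sparse cultures. The largest slope differences were 1.12 ± 0.18 per day for Ctsk (adjusted p = 0.0630), 0.84 ± 0.13 for Ctsf (adjusted p = 0.0653) and 0.68 ± 0.12 for Gaa (adjusted p = 0.0706). The trend over the days common to both densities called 0 of the 32 genes and 0 of all tested genes (0.00%), with an unadjusted p under 0.05 for 7 of 32 against 15.2%.

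Genes with and without the E-box core had similar density differences, compared without a test. The 11 tested genes with a match had a median log2 difference of 0.69, from 0.02 (Sgsh) to 1.53 (Ctsf), and 4 of them passed. The 17 tested genes with a promoter sequence and no match had a median of 0.61, from −0.01 (Gpnmb) to 1.46 (Ctsk), and 8 passed. Lamp1, whose 4 matches shown above begin at positions −61, −45, −28 and −15 relative to the start, and Mcoln1, with 2 at −71 and −45, had 2 of the 4 smallest differences. Sgsh, with 1 match at −29, had a smaller difference than either. Ctsf and Naglu, with 1 match each at −79 and −73, had 2 of the 4 largest differences.

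**Figure D4:**
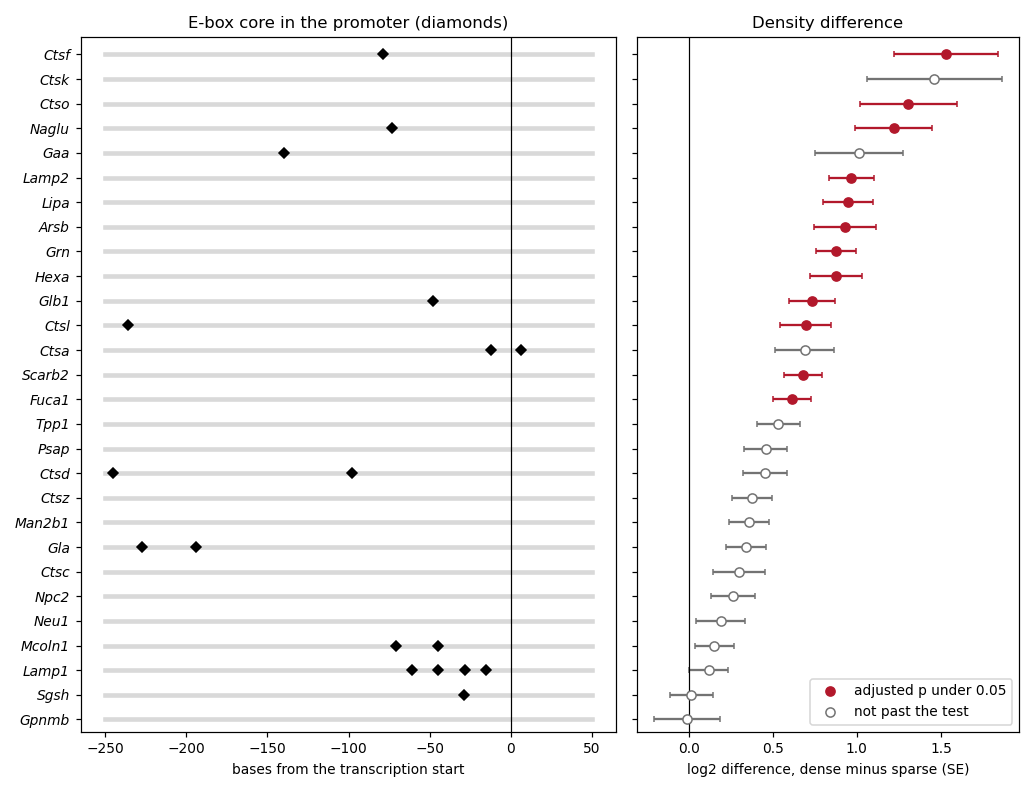
Left, positions of the E-box core (diamonds) relative to the transcription start (x axis, bases) in the promoters of the 28 tested genes with a RefSeq promoter sequence, ordered by density difference. Right, their log2 differences, dense minus sparse, with the SE, red where limma's adjusted p was under 0.05. Diamonds stand both at the top (Ctsf, Naglu) and at the bottom (Mcoln1, Lamp1, Sgsh) of the order.

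Other genes of the lysosome were compared through lists. Further hydrolases and their cofactors had 11 of 32 tested genes higher and 0 lower in dense cultures (8.26% and 2.90% of all tested genes) and a median of 0.63. Idua, which acts on dermatan and heparan sulfate, had 1.23, and Arsa, the sulfatase of sulfatide, 1.21, both past the test, while the mannosidase Man2b2 had 1.16 without passing. Of 22 tested further membrane proteins 4 were higher and 0 lower (8.26% and 2.90% of all tested genes), with a median of 0.19. These were the channel Tpcn2 (0.87), the sialic acid exporter Slc17a5 (0.79), the sialomucin Cd164 (0.77) and Laptm4a (0.74).

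The pump that acidifies the lysosome showed no common direction. Of 18 subunits and accessory proteins, 2 were higher and 1 lower in dense cultures (8.26% and 2.90% of all tested genes), and the median was −0.02. The membrane subunit Atp6v0a1 had 6.84, 7.29 and 6.93 in dense and 6.29, 6.06 and 6.20 in sparse cultures (0.84 ± 0.16), and the accessory protein Atp6ap2 had 0.72. The subunit Atp6v0b had 9.18, 9.02 and 9.17 in dense and 10.27, 9.71 and 9.75 in sparse cultures, a difference of −0.79 ± 0.14. Atp6v1c1 had −0.30 without passing. Without the day 1 arrays 1 subunit was higher and 0 lower, and without the day 2 arrays 0 were called.

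Sorting and transport genes likewise had a median near 0, at 0.06, with 1 of 23 higher and 1 lower (8.26% and 2.90% of all tested genes). The higher one was Igf2r, the large mannose 6-phosphate receptor, with 8.23, 8.45 and 8.64 in dense and 7.21, 7.80 and 7.96 in sparse cultures (0.78 ± 0.13, adjusted p = 0.0263). The adaptor subunit Ap1s1 was lower (−0.70), a call lost when the arrays of any 1 day were left out, and without the day as a block, where 0 genes of the list were lower. With quantile normalization applied again 3 were lower. Vps39 (0.60) and Ap1m1 (−0.55) did not pass.

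Regulators had 3 of 21 tested genes higher and 0 lower (8.26% and 2.90% of all tested genes), with a median of 0.08. Slc38a9, an amino acid sensor of the lysosomal membrane, had 0.98 ± 0.14, and Zkscan3, a repressor of lysosomal and autophagy genes in human cells, 0.88 ± 0.13. Robld3, the older symbol of Lamtor2, whose protein anchors growth signalling at the lysosome, had 0.79. Without the day 1 arrays 5 of them were higher. Of the factors that bind the E-box element, Tfeb (deposited as Tcfeb) had 4.73, 4.79 and 4.95 in dense and 4.95, 4.88 and 5.25 in sparse cultures, a difference of −0.20 ± 0.12 that did not pass. Tfe3 (deposited as Tcfe3) had −0.11 ± 0.19 and Mitf 0.58 ± 0.16, neither past the test. RNA levels do not show where these factors are in the cell.

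Autophagy genes had 3 of 29 higher and 0 lower (1 lower without the day 3 arrays), with a median of 0.23. Over all tested genes 8.26% were called higher and 2.90% lower. The mitophagy receptor Bnip3, a gene induced by low oxygen, had 2.53 ± 0.19, its relative Bnip3l 0.82 and the autophagosome protein Gabarapl1 0.60. The gene Atg3 had 0.55 without passing. Cathepsin inhibitors had a median of −0.21 over 13 tested genes, of which 0 were higher and 1 lower (8.26% and 2.90% of all tested genes). Without the day 1 arrays 1 was higher and 2 lower, without the day 2 arrays 0 were called, and without the day 3 arrays 1 was higher. The lower one was Cst6, an inhibitor of legumain and cathepsins, with 4.79, 4.47 and 4.10 in dense and 5.96, 5.81 and 5.53 in sparse cultures (−1.32 ± 0.12, adjusted p = 0.00763). Ctla2a (−0.67), Ctla2b (−0.55) and Spock2 (0.48) did not pass, nor did Cst3, which encodes cystatin C (0.18).

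**Figure D5:**
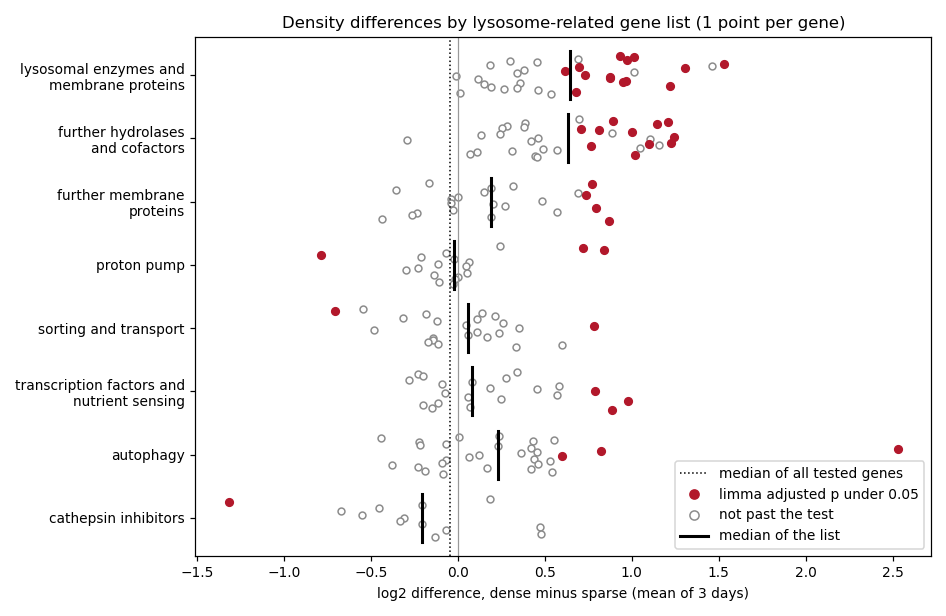
Log2 difference between dense and sparse cultures (x axis, dense minus sparse) of every tested gene of the 33 and of 7 further lists (rows), with red points at a limma adjusted p under 0.05, list medians as black bars and the median of all tested genes, −0.05, as a dotted line. The medians of the enzymes and membrane proteins (0.65) and of the further hydrolases (0.63) lie to the right of those of the proton pump (−0.02) and the sorting genes (0.06).

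By the p-values of the authors' deposited table, which rest on these 6 arrays, 20 of the 33 genes were higher in dense cultures at p under 0.05 and 0 were lower. The share over all probe sets of the authors' deposited table was 10.5%.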

How the data were processed

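Biotin-labelled cRNA from total RNA was hybridised to Affymetrix arrays, per the labels' protocols. Each array's log2 values are the authors' deposited ones, made with RMA and Partek per the submitters' processing notes. The authors' deposited table added gene symbols, a p-value per probe set and a signed fold (a score, negative where lower in dense). Another 6 columns in it, with per-sample values, were left out.

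A gene with several probe sets was read by the one with the highest mean. Genes whose mean reached the 25th percentile of named genes, 3.32, were tested. Array medians were 4.33 to 4.42 in dense cultures and 4.34 to 4.45 in sparse cultures. The 75th percentiles were 6.82 to 6.86 in dense and 6.66 to 6.75 in sparse cultures, higher in dense cultures on each day. The part of this gap in the differences of bright genes was not tested. The number of arrays limits the precision. Models came from limma 3.58.1 (R 4.3.3, eBayes, 2-sided p, Benjamini-Hochberg over all tested genes, unadjusted 95% intervals), with density and the day as a factor for dense against sparse (2 residual degrees of freedom), density and a numeric day for the day trend (3), and their product for the slope difference (2). The day in the labels pairs the arrays. Same-day deviations from the density means correlated across genes at 0.127, 0.0750 and 0.0674, and those of different days at −0.150 to 0.109. The fits were tested on simulated data.

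Lists covered further hydrolases, membrane proteins, the proton pump, sorting, regulators, autophagy, cathepsin inhibitors, further cathepsins, and mesenchymal, macrophage, osteoclast and endothelial markers. RefSeq synonyms (GRCm38.p6) matched 13 listed genes to older symbols. All 33 genes are described, and up to 4 genes of each list with the largest absolute difference. A gene that this rule picks is not reported here. Tfeb, Tfe3, Cst3, Eng and Ptprc were named beyond that rule after their values were seen. The members and lists were chosen with earlier results of these data known. Promoter sequences are from RefSeq.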

Additional observations from a re-analysis of the deposited data

How the results depend on the processing

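Of 11 alternatives, leaving out both day 2 arrays changed the result for the whole table. The number of the 33 genes called higher was 0 without day 2 and ran up to 14 without the arrays of a single day, and over all other alternatives it lay between 12 and 15, with 0 lower in each. The median log2 difference stayed between 0.52 and 0.68. With quantile normalization applied again it was 0.55, and 13 of the genes were called higher. In that setting 1085 of all 16762 tested genes were called higher and 819 lower, against 1384 and 486 in the main fit. Without the day, that is, with no replicate block, 15 genes were called higher. Of the 14 called genes, 8 passed in all 10 other alternatives, and 6 (Ctsl, Ctso, Glb1, Fuca1, Scarb2 and Grn) missed the threshold in at least 1. Of the uncalled genes 5 passed in at least 1 alternative, Psap only with a prior variance that follows the mean level (adjusted p = 0.0495). Differences near 0 changed sign for 3 genes. Leaving out the arrays of 1 day gave Ctsh −0.12 (without day 2) to 0.37, Sgsh −0.086 (without day 3) to 0.095, and Gpnmb −0.23 to 0.25 (without day 2). Quantile normalization applied again gave Sgsh −0.027, and arrays centred on their medians gave Gpnmb 0.0027. Without day 2 the number called was 0 in every other list too. Of the further hydrolases 7 were called higher with quantile normalization applied again. The slope difference and the day trend called 0 of these genes in every setting run. The cause of these changes was not tested. Days have 1 array per density, so that no alternative measures replicate cultures, and dim genes such as Ctsh and Ctso are limited by signal near background.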

Other observations

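Cathepsins outside the 33 genes were mostly dim. Of 12 further cathepsin genes, among them the placental family, 4 were bright enough to be tested, and their median log2 difference was −0.23. Ctsw, a cathepsin of cytotoxic lymphocytes, was lower in dense cultures, with 3.73, 3.43 and 3.78 in dense and 4.38, 5.44 and 5.17 in sparse cultures (−1.35 ± 0.26, limma adjusted p = 0.0331). The dense values lay under the array medians. Ctsll3 (−0.31), Ctse (−0.15) and Ctsg (−0.09) did not pass. Endothelial markers lay under the median of every array for 6 of 6 genes.

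The E-box core CACGTG was also counted in the promoters of the other lists. It was found in 8 of 17 sorting and transport genes with a promoter sequence (47.1%) and in 4 of 13 proton pump genes (30.8%), beside 4 of 23 further hydrolases (17.4%), 0 of 19 cathepsin inhibitors and 8.09% of all genes. The longer form was found in 4 of the 17 sorting genes (23.5%), against 0.370% of all genes.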
